A study of Mus musculus with 8 samples.

Results

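Sirpa and Cd47 were followed in spatial transcript maps of mouse glioma. They are 2 of the 100 genes on the panel, taken by their target names, and both were present in all 8 sections. Sirpa (gene ID 19261, chromosome 2) encodes an inhibitory receptor of myeloid cells and neurons, and Cd47 (gene ID 16423, chromosome 16) encodes its widely expressed ligand. When Cd47 on a target cell binds Sirpa on a phagocyte, the phagocyte is restrained from engulfing the cell, which is why the pair is called a don't-eat-me signal. Sirpa is known both from macrophages and microglia and from neurons, where it is abundant at synapses, so its transcript in a brain tumour can come from more than 1 kind of tissue.

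GL261 glioma cells were implanted in the brain, 4 intracranial doses were given, and the tumour-bearing hemispheres were taken on day 21. The groups were the combination (CpG-STAT3ASO with anti-PD1), CpG-STAT3ASO (an antisense oligonucleotide against Stat3 linked to a CpG DNA), anti-PD1 (an antibody against the checkpoint receptor PD1) and PBS, the vehicle. All groups carried the tumour and there was no tumour-free brain. Each group had 2 sections, and the labels do not say that these came from separate animals, so p-values measure the spread between sections, which may be technical. Strain, sex and age were not given in the sources used here.

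Each section held 1664837 to 6987530 molecules of the 100 genes, and a further 0.106 to 0.306% carried one of 28 codes named FP, read here as false-positive codes. Molecules were tallied in square bins of 360 pixels. A bin was called dense with 100 or more molecules of Mki67 and Birc5, which mark dividing cells, and low-proliferation with fewer than 10. Dense bins numbered 22, 78, 23 and 33 in the sections given CpG-STAT3ASO (combination, then CpG-STAT3ASO alone), against 827, 1090, 714 and 965 in the sections without it (anti-PD1, then PBS). No listed marker of neurons, oligodendrocytes, astrocytes or endothelial cells is on the panel, so low-proliferation tissue could not be checked against brain markers. Of the macrophage and monocyte list 6 of 10 genes were measured, and of the microglia list 2 of 6. Fewer cells of a type and less RNA per cell cannot be told apart in these tallies.

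Sirpa was abundant in low-proliferation tissue in every section, and was scarce in dense tissue in the anti-PD1 and PBS sections. Sirpa ranked 1st or 3rd of the 100 genes by molecules in the low-proliferation bins of every section. There it averaged 135 ± 25.9 molecules per bin with CpG-STAT3ASO and 144 ± 18.7 without it (SD, n = 4 each). By section, Sirpa stood at 144 and 116 molecules per low-proliferation bin with the combination, 112 and 168 with CpG-STAT3ASO, 134 and 168 with anti-PD1 and 126 and 150 with PBS. The 4 groups overlapped.

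Where CpG-STAT3ASO was not given, dense bins held far fewer Sirpa molecules: 27.4 and 22.8 per bin with anti-PD1, and 32.5 and 17.0 with PBS. All 4 lay below every low-proliferation value. The share of Sirpa among all gene molecules was lower in dense than in low-proliferation bins (log2 difference -5.55, SE 0.252, limma with the section as block, Benjamini-Hochberg adjusted p = 7.65e-06). Of the 98 genes tested, 56.1% passed the threshold of 0.05 in either direction. Counted as molecules per bin the log2 difference was -2.57 (SE 0.247). Molecules per bin of most genes ran the other way, with a median log2 difference of 3.08 over the genes tested.

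Cd47 was present in both tissues, and without CpG-STAT3ASO its molecules per bin were highest inside the tumour. In the sections without CpG-STAT3ASO it stood at 199 and 250 molecules per dense bin with anti-PD1 and 134 and 172 with PBS, against 116, 92.1, 90.7 and 73.1 per low-proliferation bin. Per bin it was higher in dense tissue (log2 difference 1.0, SE 0.212, limma adjusted p = 0.00146), and 95.9% of genes passed in either direction. As a share of all gene molecules it was lower there (log2 difference -1.98, SE 0.181, adjusted p = 0.000212). The direction for Cd47 therefore depends on the scale, while that for Sirpa does not. Within the dense tissue of these 4 sections Cd47 was lower at the outermost bins, with 92.8 to 205 molecules per bin, than at a depth of 4 to 6 bins, with 199 to 283, in each section. Sirpa ran the other way with anti-PD1, at 20.9 and 17.7 molecules per bin at that depth against 35.9 and 26.2 at the outermost bins. With PBS it was 35.6 and 17.3 at that depth, against 34.3 and 17.7. All gene molecules per bin were also lower at the outermost bins, at 3501 to 5343, than at that depth, at 5729 to 7225. As a share of all gene molecules, Sirpa was lower at that depth than at the outermost bins in each of the 4 sections. The Cd47 share was higher at that depth with PBS and in anti-PD1 replicate 1, and lower in anti-PD1 replicate 2. These gradients were not tested.

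**Figure D1:**
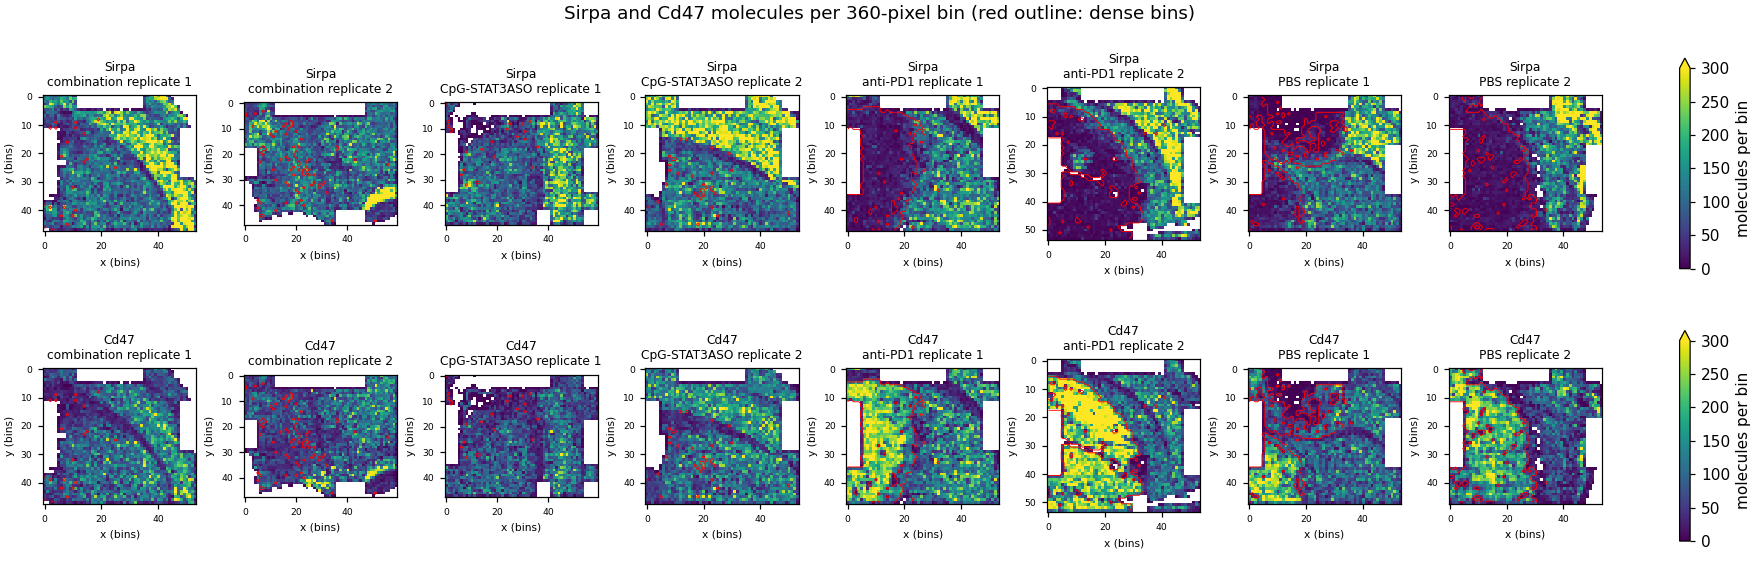
Sirpa (top) and Cd47 (bottom) molecules per 360-pixel bin in the 8 sections, with x and y in bins, the colour scale ending at 300 molecules and dense bins outlined in red. In the anti-PD1 and PBS sections the outlined areas are dark for Sirpa, with means of 17.0 to 32.5 molecules per dense bin, and mostly bright for Cd47, with means of 134 to 250.

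The ratio of the 2 transcripts, which needs no scaling between sections, was lower in dense than in low-proliferation bins in the anti-PD1 and PBS sections, while with CpG-STAT3ASO the 2 tissues overlapped. There were 1.48 and 1.27 Sirpa molecules per Cd47 molecule in low-proliferation bins with the combination, 1.55 and 1.45 with CpG-STAT3ASO, 1.16 and 1.83 with anti-PD1 and 1.39 and 2.05 with PBS. In dense bins the ratio was 1.42 and 1.60 with the combination and 1.62 and 1.17 with CpG-STAT3ASO, against 0.138 and 0.0914 with anti-PD1 and 0.242 and 0.0989 with PBS. Sirpa outnumbered Cd47 in 69.7 to 83.3% of dense bins of the sections given CpG-STAT3ASO, against 1.04 to 9.38% in the sections without it. The log2 ratio in dense bins averaged 0.53 with CpG-STAT3ASO and -2.92 without it, a difference of 3.45 (exact permutation p = 0.0286 over 70 assignments, two-sided, the smallest they can give; 0.0343 adjusted over 6 such tests). In dense bins under 200 Mki67 and Birc5 molecules the log2 ratio averaged 0.57 with CpG-STAT3ASO and -1.65 without it, a smaller difference of 2.21 (exact permutation p = 0.0286). Both comparisons were chosen after the values were seen.

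The dense bins of the sections given CpG-STAT3ASO thus carried a different amount of Sirpa. They held 114 and 117 Sirpa molecules per bin with the combination and 98.3 and 130 with CpG-STAT3ASO, against 27.4 and 22.8 with anti-PD1 and 32.5 and 17.0 with PBS. The ranges did not overlap, and for how many other genes this holds was not counted. The average effect of CpG-STAT3ASO on the share of Sirpa in dense bins was 3.77 on the log2 scale (SE 0.406, limma adjusted p = 0.00068), the third highest of 98 genes, of which 37.8% passed. Per bin it was 2.23 (SE 0.278, adjusted p = 0.000812), and 45.9% of genes passed. Cd47 in the same bins was 80.1 and 73.1 molecules with the combination and 60.6 and 111 with CpG-STAT3ASO, against 199 and 250 with anti-PD1 and 134 and 172 with PBS. Its average effect was -1.21 per bin (SE 0.285, adjusted p = 0.0163) and 0.33 as a share (SE 0.362, adjusted p = 0.498).

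These dense bins differed from those of the other sections in more than treatment. All of them were outermost bins, at most 3.24% of the tissue bins of a section, and they averaged 132 to 140 Mki67 and Birc5 molecules per bin, against 360 to 603 in the sections without CpG-STAT3ASO. Adgre1 and Cd68, which encode macrophage surface and lysosomal proteins, summed to 46.4 to 88.6 molecules per dense bin with CpG-STAT3ASO, against 10.3 to 22.9 without it. S1pr1, a sphingosine phosphate receptor gene expressed widely in brain, stood at 11.9 to 25.9 against 3.08 to 6.69. Crbn went the other way, at 15.1 to 23.5 against 30.1 to 50.4. S1pr1 and Crbn together overlapped, at 32.8 to 49.5 against 35.9 to 57.1. The 6 measured genes of the macrophage and monocyte list summed to 58.2 to 107 molecules per dense bin with CpG-STAT3ASO, against 24.1 to 38.1 without it. This sum includes Adgre1 and Cd68, and the remaining genes of the list were not summed apart. The part of these genes in the Sirpa result was not tested. Among dense bins holding under 200 molecules of Mki67 and Birc5, Sirpa stood at 113 and 116 per bin with the combination and 93.0 and 131 with CpG-STAT3ASO, against 38.5 and 20.9 with anti-PD1 and 28.8 and 15.5 with PBS. Cd47 in those bins was 73.7, 72.7, 56.2 and 111 with CpG-STAT3ASO, against 73.9, 92.4, 59.8 and 84.6 without it, so the Cd47 ranges overlapped under this cap. The cap did not equalise the bins: Mki67 and Birc5 still averaged 121 to 133 molecules with CpG-STAT3ASO, against 144 to 153 without it. The contrast between dense and low-proliferation bins in molecules per bin differed with CpG-STAT3ASO by 2.34 for Sirpa on the log2 scale (exact permutation p = 0.0286, the smallest possible, 0.0343 adjusted over 6 tests). With the capped dense bins it differed by 2.31.

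Within the sections given CpG-STAT3ASO, dense and low-proliferation bins were closer. The share was lower in dense bins for Sirpa (log2 difference -1.36, limma adjusted p = 0.00173) and for Cd47 (-1.37, adjusted p = 0.000712), where 45.8% of 96 genes passed. Per bin the differences were -0.22 for Sirpa (adjusted p = 0.161) and -0.23 for Cd47 (adjusted p = 0.127), where 71.9% passed. In bins of 10 to 99 Mki67 and Birc5 molecules, Sirpa stood at 103 and 109 per bin with the combination and 110 and 126 with CpG-STAT3ASO, against 78.7 and 63.6 with anti-PD1 and 51.8 and 38.3 with PBS. Those ranges did not overlap, and again the other genes for which this holds were not counted. The effect on the Sirpa share there was 0.84 and did not pass (limma adjusted p = 0.199, 4.21% of 95 genes past the threshold).

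**Figure D2:**
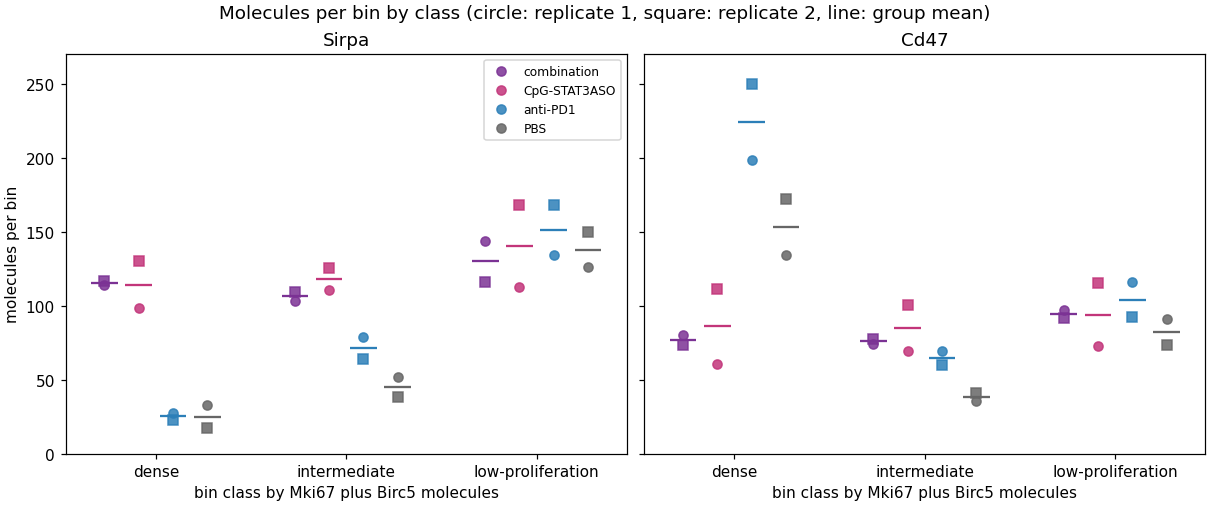
Molecules of Sirpa (left) and Cd47 (right) per bin by bin class, with 1 point per section and a line at each group mean. In dense bins Sirpa lies at 98.3 to 130 with CpG-STAT3ASO and at 17.0 to 32.5 without it, while in low-proliferation bins the groups overlap.

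Over whole sections the share of Sirpa was higher with CpG-STAT3ASO, where dense bins were few. Sirpa made up 17.9 and 6.92% of gene molecules with the combination and 15.7 and 14.1% with CpG-STAT3ASO, against 2.98 and 3.45% with anti-PD1 and 4.49 and 2.43% with PBS. The average effect of CpG-STAT3ASO on this share was 1.98 on the log2 scale (SE 0.492, limma adjusted p = 0.00362), and 43.0% of the 100 genes passed. Per tissue bin it was 0.57 (SE 0.288, adjusted p = 0.156, 31.0% of genes past the threshold). Scaled by the median of ratios it was 1.30 (adjusted p = 0.0619, 34.0% past it), so of these 3 scales only the share gave a call. Cd47 did not pass on any of these scales, with 0.91 for the share (adjusted p = 0.148) and -0.50 per bin. The log2 ratio of Sirpa to Cd47 over the whole section was higher with CpG-STAT3ASO by 1.07 (mean 0.53 with it and -0.55 without it, n = 4 each, exact permutation p = 0.0286, 0.0343 adjusted over 6 tests). In low-proliferation bins alone this difference was -0.13 (exact permutation p = 0.543).

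In low-proliferation tissue neither gene passed the test. The average effect of CpG-STAT3ASO on the share was -0.42 for Sirpa (95% interval -1.19 to 0.36, limma adjusted p = 0.53) and -0.29 for Cd47 (-1.03 to 0.45, adjusted p = 0.647), and 9.18% of 98 genes passed. Sirpa stood at -0.71 (adjusted p = 0.0392) without combination replicate 1. The effect of anti-PD1 over the whole section was -0.23 for Sirpa and -0.0042 for Cd47 (limma adjusted p = 0.998 for both), where 0% of 100 genes passed and 1 had an unadjusted p under 0.05.

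Both genes were sparser beside dense tissue than far from it. In the sections without CpG-STAT3ASO, low-proliferation bins at 1 to 3 bins from the nearest dense bin held 84.8 and 142 Sirpa molecules per bin with anti-PD1 and 95.9 and 52.5 with PBS, against 149, 201, 124 and 189 at 10 or more bins. The margin was the lower in each of the 4 sections. The share of Sirpa differed by -1.03 on the log2 scale (SE 0.226, limma with the section as block, adjusted p = 0.00126) and that of Cd47 by -0.85 (SE 0.236, adjusted p = 0.00649), and 51.1% of 90 genes passed. Per bin the differences were -0.89 for Sirpa (adjusted p = 0.0265) and -0.71 for Cd47 (adjusted p = 0.0691), with 45.6% of genes past the threshold. The Cd47 call was lost without PBS replicate 2 (-0.69, adjusted p = 0.074) or without anti-PD1 replicate 1 (-0.81, adjusted p = 0.0795).

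In the sections given CpG-STAT3ASO Sirpa was also lower at 1 to 3 bins than at 10 to 14 bins, though the shapes of the profiles were not compared by a test. At 1 to 3 bins Sirpa stood at 94.9 and 99.5 molecules per bin with the combination and 71.4 and 116 with CpG-STAT3ASO. At 10 to 14 bins it stood at 160 and 152 with the combination and 131 and 179 with CpG-STAT3ASO. Farther out the sections parted. At 20 to 29 bins, reached in 7 sections, Sirpa lay between 98.7 in PBS replicate 1 and 258 in PBS replicate 2. Cd47 stayed between 74.1 and 137 molecules per bin at that distance. Adgre1 stood at 8.82 to 13.2 molecules per bin at 1 to 3 bins with CpG-STAT3ASO, against 0.923 to 1.74 without it.

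**Figure D3:**
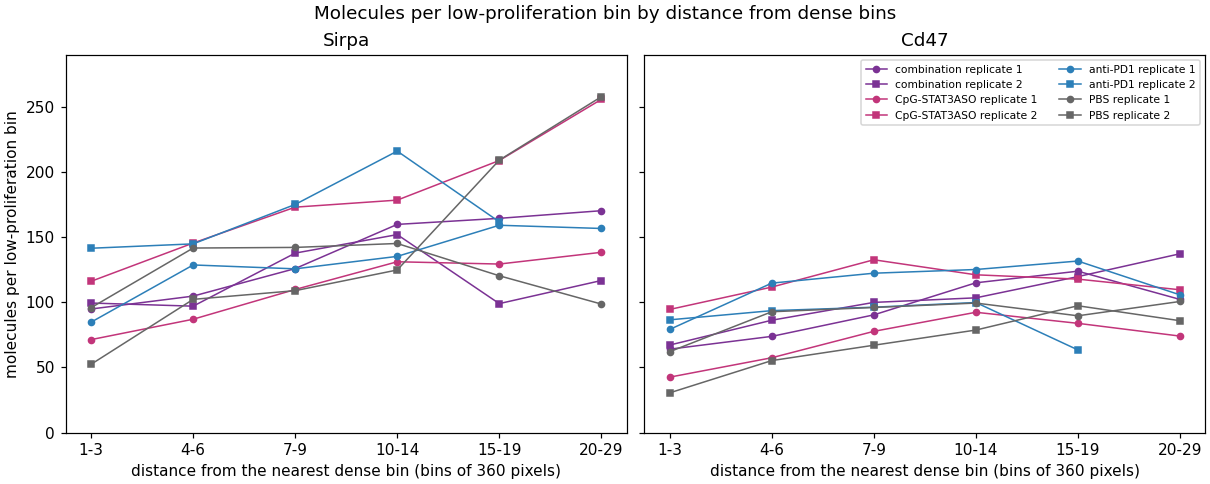
Sirpa (left) and Cd47 (right) molecules per low-proliferation bin by distance from the nearest dense bin, in bins of 360 pixels, with 1 line per section. Sirpa lies at 52.5 to 142 molecules per bin in the first band and at 125 to 216 at 10 to 14 bins.

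The genes most correlated with Sirpa were not the same in low-proliferation bins as in the dense bins of anti-PD1 and PBS. Across low-proliferation bins, Spearman correlations of molecules per bin were highest with Crbn, a substrate receptor of a ubiquitin ligase (mean rho 0.870 over 8 sections, range 0.805 to 0.917), with Cd47 (0.843, 0.797 to 0.909) and with the DNA methyltransferase gene Dnmt1 (0.831). The lowest were with Ccl5 (-0.109), Tgfbi (-0.0907) and the chemokine gene Cxcl10 (-0.0892), among 97 genes with a median of 0.0587. Sirpa had a mean rho of 0.372 with S1pr1, 0.154 with Cd68 and 0.0587 with Adgre1. The sections differed: Sirpa and Adgre1 had -0.0233 with CpG-STAT3ASO and 0.141 without it, and Sirpa and Cd68 had 0.0171 with it and 0.291 without it. With the total of the other molecules in the bin held fixed, these means over 8 sections became 0.816 for Crbn, 0.227 for S1pr1, -0.270 for Cd68 and -0.252 for Adgre1. Bins of a section share its library, depth and tissue density, so these values are a description.

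For Cd47 in low-proliferation tissue, Dnmt3a (mean rho 0.888), Crbn (0.872) and Sirpa (0.843) were highest, and Msr1, a scavenger receptor gene of macrophages (-0.108), Ccl5 (-0.105) and Tgfbi (-0.0817) lowest. Sirpa and Cd4, whose product marks helper T cells and some myeloid cells, had a mean rho of 0.0831, with sections from -0.261 to 0.491, while Cd47 and Cd4 had 0.374, with sections from 0.163 to 0.662.

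In the dense bins of anti-PD1 and PBS some myeloid genes led the ranking for Sirpa, and others did not. The mean rho of Sirpa was 0.699 with Csf1r, the receptor on which microglia and macrophages depend, 0.534 with Cd68 and 0.431 with Adgre1, against 0.510 with S1pr1, 0.147 with Crbn and 0.128 with Cd47, among 96 genes with a median of 0.128. Csf1r and Cd68 ranked 1st and 2nd for Sirpa, S1pr1 4th and Adgre1 8th. The remaining measured genes of the macrophage and microglia lists were lower. Msr1 had 0.260, Ccr2 0.193, Cd14 0.131, Mrc1 0.0665 and Tmem119 0.0229. Cd47 had a mean rho of 0.861 with Stat3 and 0.826 with Crbn, against 0.184 with Csf1r. The 4 sections each gave Sirpa a higher rho with Csf1r (0.635 to 0.772) than with Crbn (0.0744 to 0.215). In the few dense bins of the sections given CpG-STAT3ASO, 22 to 78 per section, the rho of Sirpa with Cd47 was 0.525 to 0.888. That with Crbn was 0.387 to 0.728. In the same bins Sirpa had 0.28 to 0.80 with Csf1r and 0.24 to 0.69 with Adgre1, which overlap the values for Crbn.

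The positions of single molecules in dense bins were also read around macrophage transcripts. The density of each gene within 100 pixels of Adgre1 and Cd68 molecules, the anchors, was set over that in a ring of 400 to 600 pixels. This ratio was taken relative to that of all molecules except the anchor genes, the gene itself included. Only molecules in bins of the class read, dense here and low-proliferation below, were counted. In dense bins without CpG-STAT3ASO Sirpa stood at 0.46 and 0.46 on the log2 scale with anti-PD1 and 0.52 and 0.60 with PBS, second of 98 genes after Csf1r (mean 0.57). Cd47 stood at -0.049 and -0.087 with anti-PD1 and -0.075 and -0.028 with PBS, and ranked 83rd. The difference, Sirpa over Cd47, was positive in 4 of 4 sections with a mean of 0.57 (exact sign-flip p = 0.125, the smallest that 4 sections allow). With CpG-STAT3ASO, Sirpa stood at 0.13 on average (0.014 to 0.34) around Adgre1 and Cd68. Around S1pr1 and Crbn molecules Sirpa averaged 0.31 (0.24 to 0.39) with CpG-STAT3ASO and 0.23 (0.14 to 0.35) without it. Among the sections without CpG-STAT3ASO the average was thus higher around the macrophage transcripts than around S1pr1 and Crbn. There the second anchor was mostly Crbn, at 30.1 to 50.4 molecules per dense bin against 3.08 to 6.69 for S1pr1. With CpG-STAT3ASO the 2 genes overlapped, at 15.1 to 23.5 and 11.9 to 25.9, so this anchor was not alike either. The difference between anchors was not tested. Without setting it against other genes, the log2 density ratio of Sirpa around Adgre1 and Cd68 in dense bins averaged 5.05 with CpG-STAT3ASO and 0.84 without it. With CpG-STAT3ASO dense bins were few, so the ring could reach into bins whose molecules were not counted. Cd47 showed the same, at 4.66 with CpG-STAT3ASO and 0.27 without it. The value gives no level of Sirpa in the tissue around the dense bins. The measure was therefore not alike with and without CpG-STAT3ASO, and no difference between them is read from it. Without CpG-STAT3ASO, within 50 pixels of an Adgre1 or Cd68 molecule lay 62.6 to 78.8% of the Sirpa molecules in dense bins and 42.0 to 56.3% of the Cd47 molecules. For all molecules except Adgre1 and Cd68, the pair included, it was 43.7 to 58.4%.

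Around Adgre1 and Cd68 molecules in low-proliferation bins both genes were thinner than the rest. Sirpa had a mean of -0.16 over 8 sections (-0.22 to -0.068), 67th of 97 genes, and Cd47 a mean of -0.27, 81st. Sirpa was above Cd47 in 8 of 8 sections by 0.11 on average (exact sign-flip p = 0.00781, the smallest possible). Without setting it against other genes, the log2 density ratio of Sirpa averaged 0.96 with CpG-STAT3ASO and 0.64 without it (difference 0.32, exact permutation p = 0.0286, 0.0343 adjusted over 6 tests). This call was lost at a radius of 50 pixels (exact permutation p = 0.171), around Cd68 alone or with a class limit of 20 (0.0857 for both), and without any 1 anti-PD1 or PBS section (0.0571 to 0.0857). Relative to other genes the direction turned, at -0.20 with CpG-STAT3ASO and -0.12 without it (difference -0.088, exact permutation p = 0.0286). Cd47 had a difference of 0.23 (exact permutation p = 0.0857) and, relative to other genes, -0.18. Around Sirpa molecules in these bins Flt3, a cytokine receptor gene of dendritic cell precursors (0.29), Tert, the telomerase gene (0.27), and Ifna2, an interferon alpha gene (0.23), were densest. Around Cd47 molecules Flt3 (0.49), Spp1, which encodes osteopontin (0.31), and Tert (0.30) were densest. Flt3 and Tert stood in both lists, and the ranking was not limited to abundant genes, so no neighbouring cell type is read from it.

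**Figure D4:**
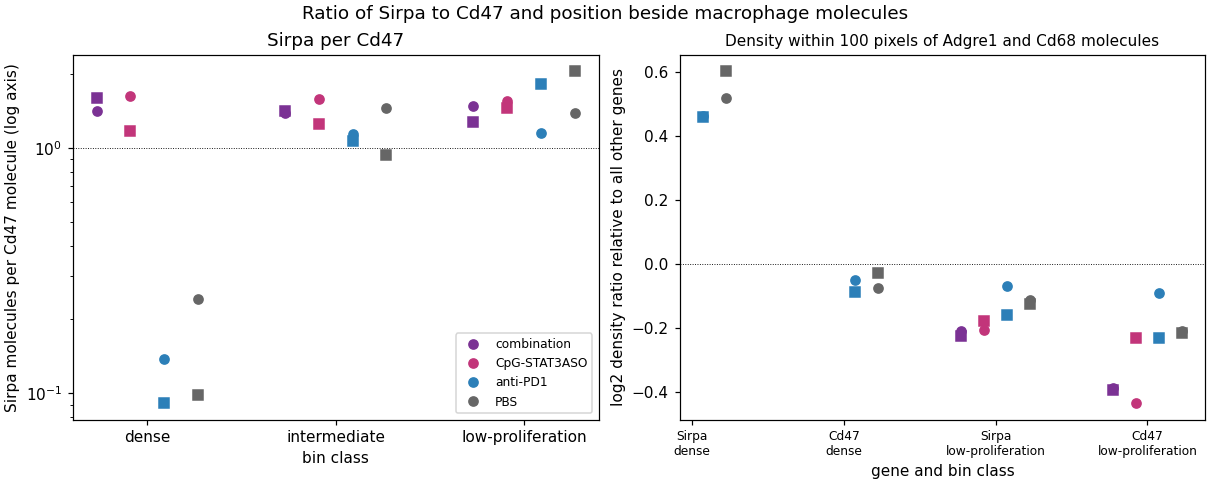
Left, Sirpa molecules per Cd47 molecule by bin class on a log axis, with 1 point per section. Right, log2 density within 100 pixels of Adgre1 and Cd68 molecules over a ring of 400 to 600 pixels. It is relative to all molecules except Adgre1 and Cd68. Dense bins are shown for anti-PD1 and PBS only, where Sirpa lies at 0.46 to 0.60 and Cd47 below 0.

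Splitting low-proliferation bins by their own macrophage molecules gave values that depend on the scale. Bins in the top 10% of their section by Adgre1 and Cd68 had a lower share of Sirpa than bins at or below the median (log2 difference -0.82, SE 0.166, limma adjusted p = 0.00187) and of Cd47 (-0.76, SE 0.203, adjusted p = 0.0085), and 52.1% of 94 genes passed. The values were larger in the sections given CpG-STAT3ASO, at -1.21 for Sirpa and -1.31 for Cd47, against -0.43 (limma adjusted p = 0.0188) and -0.20 (adjusted p = 0.141) in the sections without it, and this difference was not tested. Per bin the differences were 0.094 for Sirpa (adjusted p = 0.576) and 0.16 for Cd47 (adjusted p = 0.459), where 78.7% of genes passed, with a median gene at 1.38. With bins matched on the total of molecules other than Adgre1 and Cd68, they were -0.64 for both genes per bin (limma adjusted p = 0.00134 for Sirpa and 0.00886 for Cd47). That total includes Sirpa and Cd47 themselves, so these values are close to a comparison of shares.

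Other genes that govern phagocytosis were read from a list of 36, of which 9 are on the panel, the pair included. In dense bins, 5 of the 9 had a higher share with CpG-STAT3ASO and none a lower one, against 31.6% higher and 6.12% lower over all genes tested. They were Sirpa, Cd68 (3.45, limma adjusted p = 0.00144), Msr1 (2.29), Havcr2, a checkpoint and phosphatidylserine receptor gene (1.99), and Pdcd1, the PD1 gene (1.65). Cd47, Cd274 and Pdcd1lg2, which encode the ligands of Sirpa and PD1, stood at 0.33, 0.52 and 0.35, and the mannose receptor gene Mrc1 at 0.29, and did not pass. The median of the 9 was 1.65, beside 0.72 over all genes tested. Per bin, 2 of the 9 were higher, Sirpa and Cd68 (1.91, limma adjusted p = 0.0040), and 1 was lower, Cd47. On that scale 45.9% of the 98 genes tested passed in either direction, so the list did not stand out by its calls.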

How the data were processed

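The deposited files list each molecule's x, y and z position and its target, per the labels from Resolve single-molecule in situ hybridization; these positions, in pixels of unstated size, are the authors' other values and no unit of expression. Seurat 4.2.0 stands in the submitters' processing notes, with no role. The method of spot calling was not given in the sources used here, and probe efficiency differs between genes, so levels of different genes are not strictly comparable.

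Molecules were tallied per 360-pixel bin (tissue: at least 20 molecules). Values were log2 of molecules per 1e6 gene molecules plus 1, for genes averaging 10 molecules or more, fitted with limma 3.58.1 in R 4.3.3 (lmFit, eBayes with trend, 4 group means or the section as block). At most 4000 anchor molecules per section were used for densities. Permutations were exact and two-sided. The fits were tested on simulated data. Members, gene lists and comparisons were chosen with earlier results of these data known. The dense-bin comparisons of treatment, the dense-bin correlations and the relative densities were added after the data were seen. So were the per-bin values of macrophage-rich and macrophage-poor bins matched on total molecules. Named genes are the pair, the partners and class markers, the measured phagocytosis list, and the 3 highest and 3 lowest correlated and the 3 densest genes; others were chosen after their values were seen. The alternatives were scaling, filters, pseudocount, test, bin size, class limits, zones, radius, anchors and each section left out.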

Additional observations from a re-analysis of the deposited data

Results flagged for a closer look

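The dense minus low-proliferation contrast in molecules per bin differed between sections with and without CpG-STAT3ASO. The difference was 2.34 on the log2 scale for Sirpa and -1.23 for Cd47 (exact permutation p = 0.0286 for each, the smallest possible). With dense bins of fewer than 200 Mki67 and Birc5 molecules it was 2.31 for Sirpa and -0.029 for Cd47 (exact permutation p = 0.886).

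Among 30 sets of 4 sections screened for 1 section far from the rest, of which chance would mark about 1 in 20, anti-PD1 replicate 2 stood apart from the other sections without CpG-STAT3ASO. It was the highest in Sirpa in low-proliferation bins, at 263190 molecules per 1e6, and the highest in Cd47 in dense bins, at 49403 molecules per 1e6.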

How the results depend on the processing

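Of 346 alternative values of 20 tested results, 302 kept their direction and their side of the threshold, 20 were no longer past it, 5 were newly past it and 19 had the other direction; where a value moved, the cause was not tested. In molecules per bin, the CpG-STAT3ASO effect over whole sections was 0.57 for Sirpa and -0.50 for Cd47, the anti-PD1 effect 0.035 and 0.26, the low-proliferation effect for Cd47 0.017, dense against low-proliferation bins for Cd47 1.0, the margin for Cd47 -0.71, macrophage-rich against poor bins 0.094 for Sirpa and 0.16 for Cd47, and the dense-bin effect for Cd47 -1.21. Median-of-ratios scaling gave 1.30 for Sirpa over whole sections, 0.0022 for Cd47 with anti-PD1 and -0.81 for Cd47 in dense bins. Voom gave 0.018 for Cd47 with anti-PD1. Without a trend in eBayes the margin for Cd47 was -0.85 (limma adjusted p = 0.0621). In sections without CpG-STAT3ASO alone, macrophage-rich against poor bins gave -0.20 for Cd47. The ratio in low-proliferation bins was -0.13. The Sirpa density difference near macrophage molecules was 0.25 at 50 pixels, 0.28 around Cd68, 0.043 around S1pr1 and Crbn, 0.20 with a class limit of 20 and -0.088 relative to other genes. That of Cd47 was 0.24 at 200 pixels, 0.46 around Adgre1 and -0.18 relative to other genes. The Cd47 difference between dense and low-proliferation contrasts was 0.62 as a share and -0.029 with dense bins of fewer than 200 Mki67 and Birc5 molecules.

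Leaving out each section in turn gave 0.60 to 1.22 for the CpG-STAT3ASO effect on Cd47 over whole sections (1.22 without combination replicate 2, limma adjusted p = 0.00311), -0.57 to 0.11 and -0.31 to 0.30 for anti-PD1 on Sirpa and Cd47, and -0.71 to -0.12 for Sirpa in low-proliferation bins (-0.71 without combination replicate 1). It gave -1.07 to -0.69 for the margin of Cd47 (calls lost without PBS replicate 2 or anti-PD1 replicate 1). Density differences ranged over 0.25 to 0.40 for Sirpa, not past the threshold without any 1 of the PBS or anti-PD1 sections, and 0.16 to 0.32 for Cd47, past it without combination replicate 1 (0.32).

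The replicate numbers did not pair the sections, with correlations of same-numbered deviations from -0.525 to 0.589. With the replicate block the values stayed 1.07 for the whole-section ratio, 3.45 for the dense ratio, 2.34 for the Sirpa contrast and -1.23 for that of Cd47, each with an exact permutation p of 0.0556, the smallest that 36 assignments allow.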
